A study of Mus musculus with 10 samples.

Results

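Elovl3 encodes an elongase of very-long-chain fatty acids, an enzyme of the endoplasmic reticulum. It was followed through single hepatocytes of the mouse at 4 times of day. It is 1 of the 14812 gene entries in the deposited tables, and its row was taken by name. The entry, elovl3, was chosen by its measured levels: 496 CPM at ZT0 against 39.1 CPM at ZT12, and higher near the central vein, where CPM are UMIs per 1000000 UMIs of a library. Its own values are therefore given as a description, with no test. Tests are reported for other genes, with p-values adjusted over all genes tested.

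The 10 libraries were prepared from C57BL/6 male mice aged 3 months, fed regular chow without restriction and anaesthetized with ketamine and xylazine. Hepatocytes, the main cells of the liver parenchyma, were released by collagenase perfusion, purified on Percoll and made into libraries with the 10x Chromium 3′ kit, version 2, which counts messenger RNAs at their 3′ ends by unique molecular identifiers (UMIs). ZT stands for zeitgeber time, in hours from lights on by the usual convention. Libraries are named by time and letter: ZT0A, ZT0B and ZT0C, ZT6A and ZT6B, ZT12A, ZT12B and ZT12C, and ZT18A and ZT18B. How many animals stand behind a library is not stated in the labels, so n counts libraries and p-values measure the spread between them, which may be technical. All libraries are from untreated males on the same food, so no female, fasted or mutant group stands beside them.

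Elongases carry out the first step of a cycle that adds carbon pairs to a fatty acyl-CoA: they join it to malonyl-CoA, and a reductase, a dehydratase and a further reductase complete the round. The members of the family differ in the chain length and saturation of the acyl-CoA they take. Elovl3 takes saturated and monounsaturated long chains and was first described in brown fat of cold-exposed mice. In the mouse liver it is known as a gene with a daily rhythm and with higher levels in males. It has been linked to the nuclear receptors REV-ERB and ROR, to the lipogenic factor SREBP-1 and to androgens.

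On build GRCm38 (GENCODE M21), Elovl3 lies on the plus strand of chromosome 19, at chr19:46131897-46135694. It has 4 exons and 2 annotated transcripts, which end at positions 46135312 and 46135694 within the last exon. In the last 500 bases of each transcript, none of the 470 words of 31 bases occurs in a GENCODE transcript of another gene, on either strand. Pitx3, a gene on the opposite strand, overlaps the last 10 bases of the longer transcript in GENCODE. In the RefSeq gene table (GRCm38.p6) it begins at position 46135281, before the ends of both transcripts. It had 5 UMIs in all 10 libraries. The nearest genes before Elovl3 were Ldb1, Pprc1 and Nolc1, and those after it Pitx3, Gbf1 and the pseudogene Gm8974, which was not among the entries. None of the 4 neighbours that could be tested had a 24-h rhythm (edgeR adjusted p from 0.188 for Ldb1 to 0.698 for Nolc1), where 5.14% of all 8908 genes did. Nolc1, which encodes a nucleolar protein, was higher on the pericentral side by 0.56 ± 0.12 (log2 ± SE, n = 10, edgeR adjusted p = 0.000732).

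The tables hold 18378 cells, 710 to 2860 per library, with 1454623 to 7144803 UMIs per library, 1588 to 2662 UMIs in the median cell and 1048 in the smallest. The tables name cells by library and number, and no 2 libraries shared an identical cell. Hepatocyte markers (6 of 6 listed, such as Alb and Apoa1) summed to 39678 to 85270 CPM. Endothelial, macrophage, lymphocyte, neutrophil and stellate marker lists each summed to at most 11.3 CPM in any library. Of 5 fat cell markers only Plin1 and Fabp4 were entries, at 0.446 to 5.03 CPM together. Library ZT18A held 117 UMIs of Xist, the RNA of the inactive X chromosome, in 64 of its cells (3.81%), although all mice are labelled male. The other 9 libraries held at most 1.

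Elovl3 was high around lights on and low at ZT12. The 3 ZT0 libraries measured 393 (A), 327 (B) and 769 (C) CPM. At ZT6 Elovl3 measured 91.8 (A) and 133 (B) CPM. The ZT12 libraries measured 30.2 (A), 19.2 (B) and 67.8 (C) CPM, and the ZT18 libraries 171 (A) and 102 (B) CPM. Every ZT0 library stood above every library of another time, and every ZT12 library below. The ZT0 mean was 496 ± 238 CPM (SD, n = 3) and the ZT12 mean 39.1 ± 25.5 (n = 3). Between them lay the ZT6 mean of 112 ± 28.8 and the ZT18 mean of 136 ± 49.3 (n = 2 each). The order was thus ZT0, ZT18, ZT6, ZT12, and the neighbours ZT18 and ZT6 did not differ beyond their spread, since ZT6B lay above ZT18B. CPM here are shares of a library's own UMIs, while log2 differences below come from the fit with TMM scaling.

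**Figure D1:**
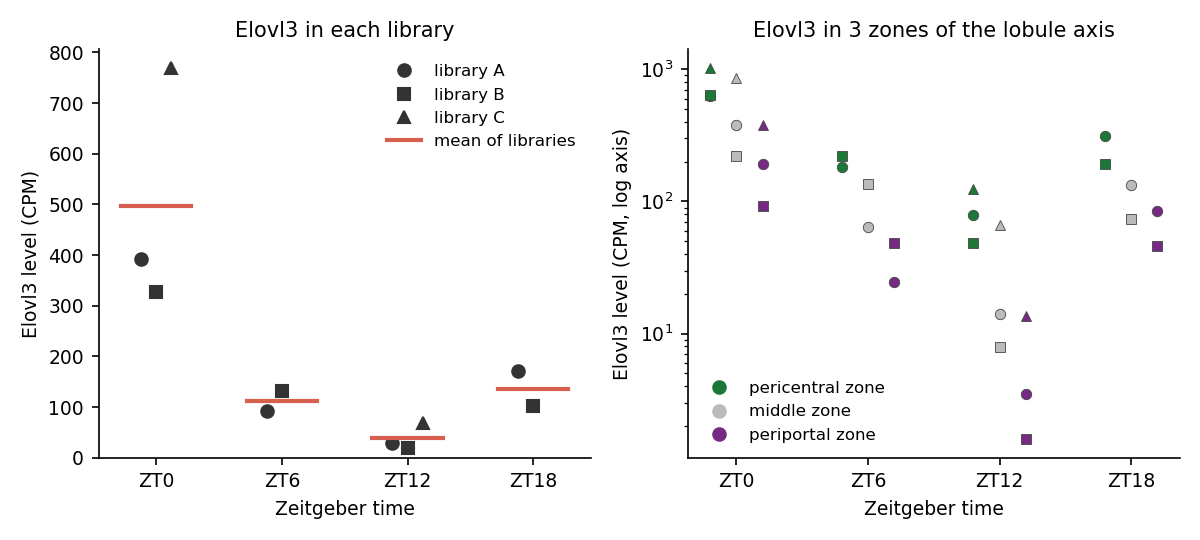
Elovl3 level in CPM by zeitgeber time. Left, each of the 10 libraries on a linear axis with the mean of each time as a horizontal line; right, the same libraries split into 3 zones of the lobule axis, on a log axis. The ZT0 libraries lie between 327 and 769 CPM and the ZT12 libraries between 19.2 and 67.8, and in each library the pericentral zone lies above the periportal one.

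In the model with 1 mean per time, ZT12 minus ZT0 was -3.85 ± 0.43 (log2, SE, 3 libraries against 3), and ZT18 minus ZT6 was 0.35 ± 0.47 (2 libraries against 2). Leaving out ZT18A turned the latter to -0.05. A 24-h wave fitted to all 10 libraries had a log2 amplitude, the distance from mean to peak, of 1.94 and a peak at ZT 23.66. Samples 6 h apart cannot tell a wave from a shorter pulse.

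The letters carried a difference of their own. Library C was the highest of its time both at ZT0 and at ZT12. Libraries of the same letter at those 2 times share their 10x sample index number (3 for A, 7 for B, 5 for C). Their deviations from the time means moved together across genes averaging 20 CPM or more. The r was 0.27 for A, 0.51 for B and 0.62 for C. Both ZT6 libraries also carry index number 7. Their deviations had r from -0.06 to 0.06 with those of ZT0B and ZT12B. With 2 libraries at ZT6 these deviations are mirror images, and whatever both libraries share goes into the time mean. These r therefore cannot show whether the index number matters. Within a letter, the level at ZT0 was 12.98 times that at ZT12 for A (95% interval 9.64 to 17.9, exact, counting error only), 17.1 times for B (14.4 to 20.4) and 11.3 times for C (9.56 to 13.6). ZT0 was the higher in each pair, and the intervals of B and C did not overlap. With the letter as a block the fitted difference was -3.92. The ZT18 libraries share an index number (4) that no other time has, so that number and the time cannot be told apart.

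Position was read from 16 landmark genes, Elovl3 not among them, that order each library's cells along the axis between central and portal veins. The periportal markers, 8 in all, were Ass1, Asl, Cyp2f2, Ftcd, Pigr, Hal, Hsd17b13 and Ctsc. The pericentral markers, also 8, were Cyp1a2, Cyp2e1, Rgn, Oat, Lect2, Gulo, Aldh1a1 and Mgst1. Blood enters the lobule at the portal side and leaves at the central vein. Cells were split into 3 zones of equal size, and Elovl3 was highest in the pericentral zone of all 10 libraries. At ZT0 it measured 628, 638.5 and 1025 CPM in the pericentral zone of A, B and C. In the periportal zone of the same libraries it measured 191, 92.8 and 381 CPM. The middle zone lay between, at 381, 221 and 857 CPM. At ZT6 the pericentral zone measured 181 and 220.2 CPM and the periportal zone 24.7 and 48.9. At ZT18 the 2 values were 315 and 193 CPM on the pericentral side against 84.4 and 45.8 on the periportal side. At ZT12 the pericentral zone still held 78.3, 48.6 and 125 CPM, while the periportal zone held 3.51, 1.59 and 13.6 CPM, which rest on 2, 4 and 9 UMIs.

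The pericentral zone of a library had from 2.69 times (ZT0C) to 30.6 times (ZT12B) the level of its periportal zone. The 95% exact intervals, for counting error, were 2.47 to 2.93 and 11.6 to 114. In ZT12A the ratio of 22.3 had an interval of 5.75 to 191. Fitted over all libraries with the library as a block, periportal minus pericentral was -2.12 ± 0.14 (log2, SE, n = 10). The pericentral zone held 47.0% (ZT0C) to 83.9% (ZT12B) of a library's Elovl3 UMIs. The median share of mitochondrially encoded UMIs was lower in the pericentral than in the periportal zone of all 10 libraries (0.724 to 0.901 times), and its part in the zone difference was not tested. The median UMIs per cell went either way, at 0.857 to 1.19 times.

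Split into 8 layers, the level fell from the central to the portal side with few exceptions. Layer 1, next to the central vein, was the highest in 9 of 10 libraries, and layer 2 in ZT6B. Of the 70 steps from one layer to the next, 63 were falls. At ZT0 the mean fell from 871 ± 183 CPM in layer 1 to 536 ± 356 in layer 4 and 180 ± 103 in layer 8 (SD, n = 3). At ZT12 it fell from 117 ± 40.5 CPM in layer 1 to 37.0 ± 39.8 in layer 4 and 4.29 ± 6.52 in layer 8, where the 3 libraries together held 4 UMIs. At ZT6 layer 1 measured 212 ± 5.93 CPM and layer 8 measured 16.6 ± 8.47, and at ZT18 the values were 318 ± 106 and 69.4 ± 31.8 (n = 2 each).

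**Figure D2:**
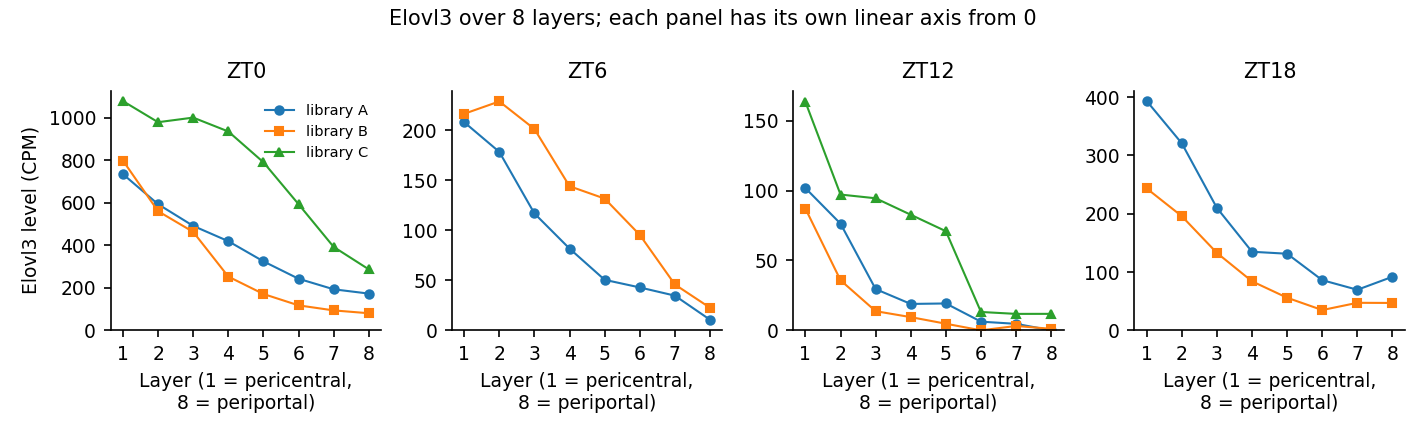
Elovl3 level in CPM over 8 layers of equal cell number, from pericentral (1) to periportal (8), with 1 panel per time and 1 line per library; each panel has its own linear axis. Layer 1 is highest in 9 of 10 libraries, and the curve of ZT0C stays near its top as far as layer 4.

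The shape of the fall differed between libraries. The first layer with under 50% of a library's highest layer was layer 5 in ZT0A, 4 in ZT0B and 7 in ZT0C. It was layer 3, 2 and 5 in ZT12A, ZT12B and ZT12C, layer 4 and 6 in ZT6A and ZT6B, and layer 4 in both ZT18 libraries. C thus fell latest at both ZT0 and ZT12, in the same libraries that had the highest total level.

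Taken by zone, the ratio of ZT0 to ZT12 was larger on the portal side. It was 8.01 (A), 13.1 (B) and 8.18 (C) in the pericentral zone, against 54.5, 58.4 and 28.1 in the periportal zone, where the 95% exact intervals were 15.0 to 452, 22.5 to 216 and 14.7 to 61.7. In fits within 1 zone the amplitude was 1.70 pericentrally and 2.67 periportally, with peaks at ZT 23.51 and ZT 23.30. Read the other way, the zone difference fitted within a time was largest at ZT12, at -3.93 ± 0.29 (log2, SE). For ZT6 it was -2.43 ± 0.18, and for ZT0 and ZT18 it was -1.84 ± 0.18 and -1.88 ± 0.13. In CPM the order was reversed: pericentral exceeded periportal by 542 ± 104 CPM at ZT0 (n = 3) and by 77.8 ± 32.5 at ZT12 (SD, n = 3). Neither time nor zone alone separated all values: the lowest ZT0 periportal value, 92.8 CPM, lay below the highest ZT12 pericentral one, 125 CPM. Whether the ratios differ between zones was not tested for this gene.

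At 1000 UMIs per cell, the mean share of cells with the transcript followed the same order over time as the sums. With every cell thinned at random to 1000 UMIs, Elovl3 was seen in 32.1% (A), 23.9% (B) and 51.0% (C) of cells at ZT0. The shares were 8.72% and 11.7% at ZT6, 2.96%, 1.98% and 7.11% at ZT12, and 16.2% and 10.2% at ZT18. Without thinning they were 55.7%, 40.2% and 76.9% at ZT0 and 5.49%, 5.02% and 10.7% at ZT12. In the pericentral zone the thinned share was 45.2%, 45.6% and 62.4% at ZT0 and 7.17%, 5.22% and 12.9% at ZT12. In the periportal zone it was 18.3%, 7.87% and 31.3% at ZT0, and 0.424%, 0.243% and 2.37% at ZT12. In cells thinned to 2000 UMIs, the order of the ZT6 mean (20.4%) and the ZT18 mean (19.2%) over all zones was reversed.

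**Figure D3:**
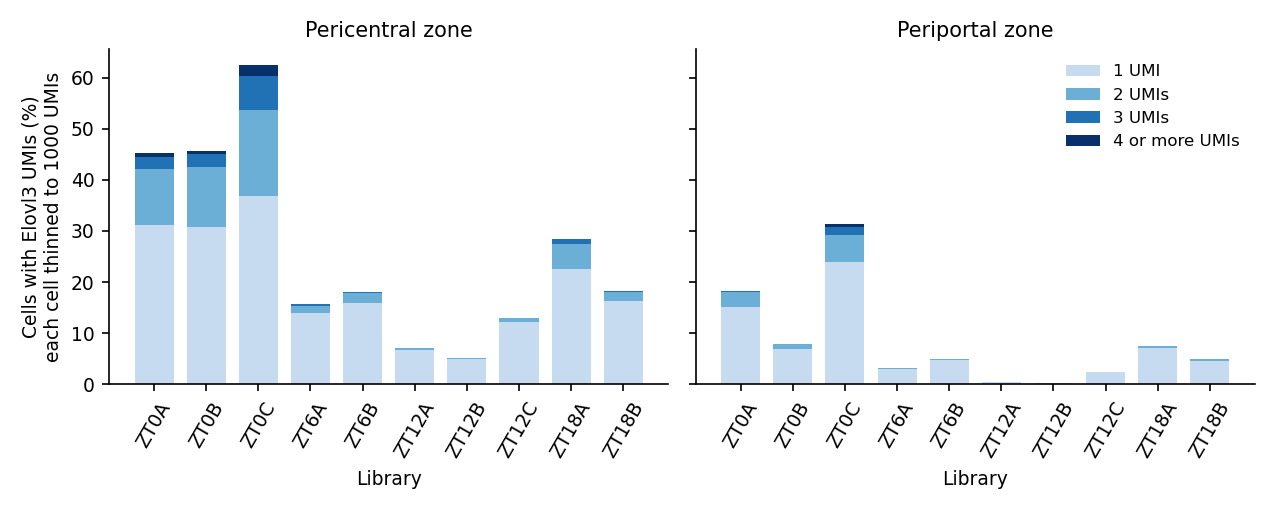
Share of cells with 1, 2, 3, or 4 or more Elovl3 UMIs after thinning each cell to 1000 UMIs, in the pericentral (left) and periportal (right) zone of each of the 10 libraries, as stacked bars from 0. Bars at ZT0 reach 62.4% on the left and 31.3% on the right, and those at ZT12 stay at or below 12.9% and 2.37%.

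The number of UMIs per cell moved with the share of cells. Cells with 5 or more Elovl3 UMIs occurred at ZT0 alone among these libraries: 64 in A, 59 in B and 325 in C, or 6.65% of the 6736 ZT0 cells. The highest count in a cell was 18, in ZT0C, and no cell of another time had more than 4. Among thinned cells with the transcript, the mean was 1.38 ± 0.0942 UMIs at ZT0 (SD, n = 3) and 1.05 ± 0.00452 at ZT12 (n = 3). Within a zone the variance of the thinned counts was 0.927 to 1.25 times their mean over the 30 zones, where random sampling of 1 level gives 1. Thinning to few UMIs draws this ratio towards 1, so it cannot show whether the cells of a zone share 1 level. No cell type that lacks Elovl3 was present in number, so the part of the UMIs that free RNA gave could not be measured.

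Markers of other cells were read beside the time pattern. The 4 cholangiocyte markers summed to 17.4 to 32.5 CPM at ZT0 and 0.773 to 4.27 at ZT6. The sum was 3.44 to 6.53 CPM at ZT12 and 11.6 to 17.3 at ZT18, so it was also highest at ZT0. It did not rest on all 4 markers: 3 had no UMI in ZT0C, ZT6B and ZT18A, and 2 had none in ZT0A and ZT0B. In each ZT0 library, cells with a UMI of these markers were more frequent in the periportal than in the pericentral zone. The part of these markers in the result was not tested. Erythroid markers were at 72.2 to 108 CPM except in ZT18B, at 270.5 CPM. In ZT18A, Elovl3 measured 98.4 CPM in cells with an Xist UMI, from 16 UMIs, and 175 CPM in the rest. Transcripts of Y-linked genes stood at 117 CPM in the cells with Xist and at 113 CPM in the whole library.

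No tested relative of Elovl3 was called pericentral or called lower at ZT12 than at ZT0, where 12.7% and 1.70% of all genes were. With 4 relatives tested, finding none is near those shares. From ZT0 to ZT12, Elovl1 was at -0.44 ± 0.20 and Elovl5 at -0.36 ± 0.22 (log2, SE), both without a call. Elovl2 was at 0.24 ± 0.19, also without a call, and Elovl6 rose, as given below. Elovl4 was not among the entries. Elovl7 had a mean of 0.306 ± 0.268 CPM over the 10 libraries, under the minimum of 3 CPM for a test. Of the 4 tested, edgeR called 1 rhythmic over 24 h, where 5.14% of all genes were. That gene was Elovl6, which lengthens palmitate to stearate. DESeq2 called 3 of the 4 rhythmic, Elovl1, Elovl5 and Elovl6, as it did 792 of all genes. With the index number as a block edgeR called Elovl1 as well as Elovl6. The median amplitude was 0.48 for the list against 0.25 for all genes. Elovl6 measured 47.1, 69.4 and 42.7 CPM at ZT0, 65.6 and 69.9 at ZT6, 175, 94.8 and 133 at ZT12, and 189.6 and 96.7 at ZT18. Its ZT12 libraries all stood above its ZT0 libraries, the opposite order to Elovl3. It rose by 1.18 ± 0.29 from ZT0 to ZT12 (log2, SE, edgeR adjusted p = 0.039), where 1.74% of 8908 genes rose and 1.70% fell. Its fitted peak was at ZT 14.96 with an amplitude of 0.82 (edgeR adjusted p = 0.0256). The rise lost its call without any one of ZT0A, ZT0C, ZT6A, ZT6B, ZT12A and ZT12C (edgeR adjusted p up to 0.151), and the rhythm without ZT0A, ZT6A, ZT12A or both ZT18 libraries (edgeR adjusted p up to 0.0589).

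In the zone test 2 of the 4 relatives were higher on the periportal side and none on the pericentral side, where 11.9% and 12.7% of 8907 genes were. Elovl2, an elongase of polyunsaturated fatty acids, measured 324 ± 48.3 CPM pericentrally and 502 ± 94.4 periportally (SD, n = 10) and was higher in the periportal zone of all 10 libraries (0.72 ± 0.07, log2, SE, edgeR adjusted p = 1.5e-10). Elovl5, which takes polyunsaturated chains of middle length, was higher periportally in 8 of 10 libraries (0.44 ± 0.08, edgeR adjusted p = 3.3e-05). Elovl6 was at 99.8 ± 60.8 and 94.7 ± 43.3 CPM and Elovl1, an elongase of saturated very long chains, at 34.6 ± 8.64 and 33.8 ± 9.47 CPM in the 2 zones, with no call. The zone counts leave out the landmarks.

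The enzymes that complete each round of elongation had calls by zone and not over time. Of the 5 tested among 6 listed (Hacd4 was too low), edgeR called none for rhythm or for ZT12 against ZT0. At an unadjusted p under 0.05 there was 1 in each, and DESeq2 called none. By zone 3 of 5 were called pericentral, where 12.7% of all genes were. Hsd17b12, the ketoacyl-CoA reductase, measured 191 ± 38.8 and 152 ± 19.1 CPM in the pericentral and periportal zone (-0.22 ± 0.07, edgeR adjusted p = 0.0134). The dehydratases Hacd1 (-0.41 ± 0.13, edgeR adjusted p = 0.0175) and Hacd3 (-0.22 ± 0.07, edgeR adjusted p = 0.0238) went the same way. Hsd17b12 was lost with cells of at least 3000 UMIs (edgeR adjusted p = 0.132), Hacd1 without ZT0B or ZT0C and by DESeq2 (adjusted p up to 0.0816), and Hacd3 without ZT0A, ZT12A or ZT12B, by DESeq2, without the 5% of cells with the most UMIs, or with cells of at least 3000 UMIs (adjusted p up to 0.110). Tecr, the last reductase of the round, was at 0.17 ± 0.08 with no call.

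Desaturases, which place double bonds in the chains, had no call over time: of 4 tested among 6 listed, edgeR called none in either time test, with none at an unadjusted p under 0.05 and none by DESeq2. Fads1 (0.44 ± 0.07, edgeR adjusted p = 3.2e-06) and Fads2 (0.52 ± 0.11, edgeR adjusted p = 0.0004), the desaturases of polyunsaturated chains, were periportal, where 11.9% of all genes were. Fads2 was lost with cells of at least 3000 UMIs (edgeR adjusted p = 0.216). Scd1, which makes monounsaturated chains, was at -0.14 ± 0.08 with no call.

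The 9 genes of cytosolic fatty acid synthesis, which makes palmitate and the malonyl-CoA that elongases use, included 3 rhythmic ones, against 5.14% of all genes. Their fitted peaks fell between ZT 16 and ZT 20: Fasn, the synthase (amplitude 0.88, edgeR adjusted p = 0.015), Mid1ip1, an activator of acetyl-CoA carboxylase (0.84, edgeR adjusted p = 0.037), and Thrsp, a lipogenic protein (1.04, edgeR adjusted p = 0.045). DESeq2 called 6 of the 9 rhythmic, these 3 with Acacb, Acly and Acss2. By edgeR, none of the first 3 was called without ZT18A or without both ZT18 libraries. Fasn was also lost without ZT6B (edgeR adjusted p up to 0.0996 with 1 library left out, and 0.288 without both ZT18 libraries). Mid1ip1 was also lost without ZT6A, ZT6B, ZT12B, ZT12C or ZT18B (edgeR adjusted p up to 0.164, and 0.205 without both ZT18 libraries) and with library size alone (0.0513). Thrsp was also lost without ZT0B, ZT0C, ZT6A, ZT6B, ZT12A or ZT12C (edgeR adjusted p up to 0.136). With the index number as a block Fasn and Mid1ip1 lost their calls (edgeR adjusted p = 0.0666 and 0.0907). Acacb, the mitochondrial acetyl-CoA carboxylase, was the 1 gene of the list that edgeR called between ZT0 and ZT12. It fell (-1.44 ± 0.34, edgeR adjusted p = 0.0302). It was lost without ZT0B, ZT12A, ZT12B or ZT12C and with library size alone (edgeR adjusted p up to 0.122). DESeq2 called Acacb and Acss2 as lower at ZT12 and Thrsp as higher. With the letter as a block 3 of the 9 were called between ZT0 and ZT12 (Acacb, Acss2 and Mid1ip1), where 5.66% of all genes were against 3.44% without it. By zone 3 of 9 were periportal and 1 pericentral, where 11.9% and 12.7% of all genes were. Acly, which makes cytosolic acetyl-CoA (1.12 ± 0.12, edgeR adjusted p = 5.8e-09), and Acaca, the carboxylase that makes malonyl-CoA in the cytosol (0.90 ± 0.08, edgeR adjusted p = 3e-11), were higher periportally in all 10 libraries. Fasn was periportal by 0.39 ± 0.09 (edgeR adjusted p = 0.00079). Me1, the malic enzyme that supplies NADPH, was pericentral in all 10 libraries (-0.77 ± 0.08, edgeR adjusted p = 5.3e-10).

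Genes that activate or bind acyl-CoA had no call over time by edgeR or DESeq2 (8 tested; 1 for rhythm and 2 for ZT12 against ZT0 at an unadjusted p under 0.05 by edgeR). By zone 3 were pericentral and 1 periportal, where 12.7% and 11.9% of all genes were. The acyl-CoA synthetase Acsl1 measured 1047 ± 158 CPM pericentrally and 731 ± 116 periportally (-0.42 ± 0.06, edgeR adjusted p = 3e-06), and Dbi, the acyl-CoA binding protein, 2671 ± 1372 and 1930 ± 954 CPM (-0.37 ± 0.09, edgeR adjusted p = 0.00173). Slc27a2 was at -0.19 ± 0.06 and Slc27a5 at 0.27 ± 0.07 (edgeR adjusted p = 0.0199 and 0.0057), but Slc27a2 was lost without ZT0C or with cells of at least 3000 UMIs (edgeR adjusted p up to 0.484), and Slc27a5 with library size alone (edgeR adjusted p = 0.0589). Of the listed genes for the synthesis of ceramides or cholesterol esters, 6 of 8 could be tested. Of these, 1 was called rhythmic, where 5.14% of all genes were. It was Soat2, an enzyme that makes cholesterol esters (peak at ZT 7.83, edgeR adjusted p = 0.038). The call was lost without any one library other than ZT0B or ZT12C (edgeR adjusted p up to 0.130), without both ZT18 libraries (0.230), with the index number as a block (0.172) and without the 5% of cells with the most UMIs (0.0691). By zone 1 of the 6 was called, where 24.6% of all genes were. It was Degs1, which makes ceramide and was periportal (0.51 ± 0.08, edgeR adjusted p = 3.7e-06). Neither of the 2 ceramide synthases tested, Cers2 and Cers6, had a call in any of the 3 tests.

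Peroxisomes shorten very long chains, the reverse of elongation. Of their 9 genes tested, 6 were called pericentral, the side of Elovl3, where 12.7% of all genes were. None was called periportal, where 11.9% of all genes were. The median difference was -0.54 for the list and -0.01 for all genes. Acaa1b, a thiolase, measured 1394 ± 538 CPM pericentrally and 455 ± 156 periportally (-1.49 ± 0.07, edgeR adjusted p = 2.2e-18). Acaa1a, another thiolase (-0.64 ± 0.08, edgeR adjusted p = 1.7e-07), and Ehhadh, the bifunctional enzyme (-0.55 ± 0.08, edgeR adjusted p = 6.3e-07), were pericentral in all 10 libraries. Acaa1a and Acaa1b are close copies, and reads may be split between them. Over time edgeR called 1 of the 9 rhythmic, where 5.14% of all genes were. It was Ehhadh (peak at ZT 19.6, edgeR adjusted p = 0.0274). Its call was lost without ZT6A, ZT6B, ZT18A or ZT18B (edgeR adjusted p up to 0.121), without both ZT18 libraries (0.251) and with the index number as a block (0.181). DESeq2 called Abcd2 as well.

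Of the 12 regulators linked to Elovl3 that were tested, edgeR called 5 rhythmic, against 5.14% of all genes. DESeq2 called 6, with Srebf1 added. Nr1d1, which encodes REV-ERB alpha, a repressor, measured 0.698, 1.93 and 2.53 CPM at ZT0, 39.6 and 24.7 at ZT6, 1.37, 7.14 and 10.0 at ZT12, and 0.314 and 0.269 at ZT18, the last from 1 UMI each. Its peak was at ZT 7.03 (edgeR adjusted p = 5.45e-05), between the high and the low of Elovl3. Nr1d2, which encodes REV-ERB beta, peaked at ZT 10.2 and rose by 3.32 ± 0.21 from ZT0 to ZT12 (edgeR adjusted p = 1.1e-06). Arntl, the clock activator BMAL1, peaked at ZT 21.6 and fell by 3.90 ± 0.43 from ZT0 to ZT12 (edgeR adjusted p = 0.00017). Insig2, which holds SREBP in the endoplasmic reticulum, peaked at ZT 23.8 and was at -1.85 ± 0.24 from ZT0 to ZT12 (edgeR adjusted p = 0.00068). In all, 1 regulator rose and 2 fell between these times, where 1.74% and 1.70% of all genes did. With the letter as a block 2 rose and 2 fell, since Nr1d1 was then called as higher at ZT12, as it was by DESeq2 and with library size alone. Without the block it was at 1.80 ± 0.46 (edgeR adjusted p = 0.0515).

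By zone 4 of the 12 were called, 2 pericentral and 2 periportal, where 24.6% of all genes were called. Ppara, a receptor for fatty acids, was pericentral (-0.44 ± 0.12, edgeR adjusted p = 0.00431). Rora (0.49 ± 0.07, edgeR adjusted p = 2.3e-06), a ROR gene, and Srebf1 (0.46 ± 0.08, edgeR adjusted p = 5.1e-05), the gene of SREBP-1, were periportal in all 10 libraries. The median zone difference was -0.09 for the list.

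Genes known for higher levels in male than in female mouse liver were compared because Elovl3 is one. All 10 listed had a zone call, where 24.6% of all genes did: 7 were pericentral and 3 periportal. Cyp4a12b (-1.43 ± 0.14, edgeR adjusted p = 3.5e-10) and Cyp4a12a (-1.16 ± 0.09, edgeR adjusted p = 2.8e-12), fatty acid hydroxylases, are close copies between which reads may be split. Cyp7b1, an oxysterol hydroxylase, measured 180 ± 127 CPM pericentrally and 68.9 ± 61.1 periportally (-1.40 ± 0.16, edgeR adjusted p = 9.5e-09). Mup20, a urinary protein that is a pheromone and a member of a family of close copies, went the other way (1.77 ± 0.10, edgeR adjusted p = 2.4e-16). The other 2 periportal ones were Gstp1 and Selenbp2, and Gstp1 was lost without the 5% of cells with the most UMIs (edgeR adjusted p = 0.0517). Over time edgeR called none of the 10 for rhythm (4 at an unadjusted p under 0.05, none by DESeq2) and none between ZT0 and ZT12 (none at an unadjusted p under 0.05, none by DESeq2). With the letter as a block 5 were called rhythmic, as were 749 of all genes.

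**Figure D4:**
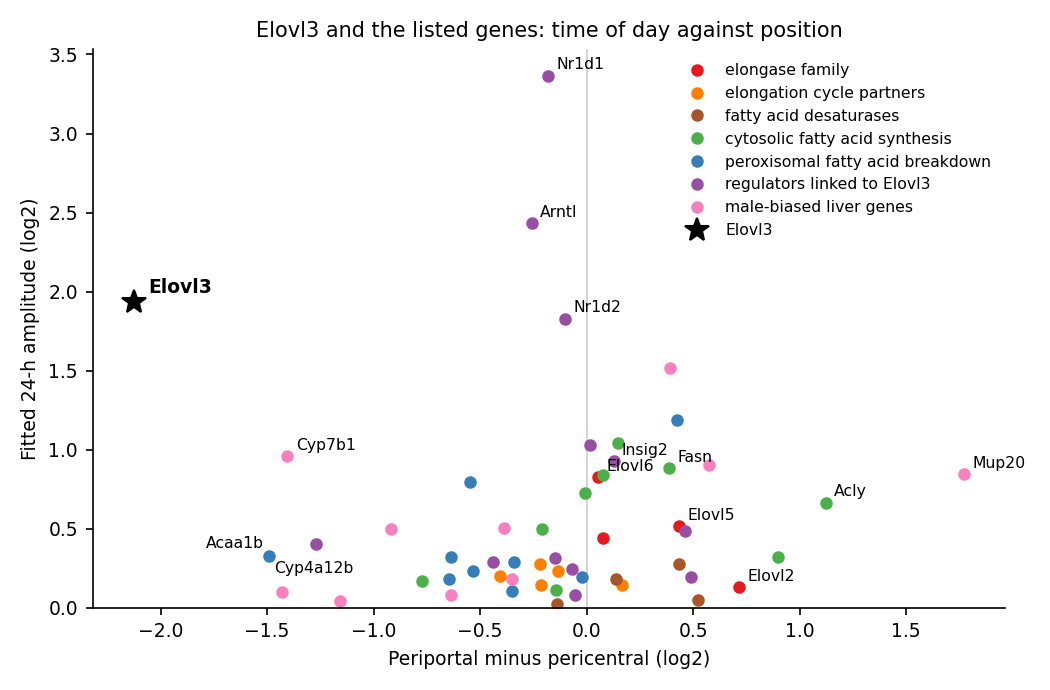
Fitted 24-h amplitude (log2) against the periportal minus pericentral difference (log2) for Elovl3 (star) and the tested genes of 7 lists (coloured points). Elovl3 lies at -2.12 and 1.94, while Nr1d1, Arntl and Nr1d2 lie between -0.26 and -0.10 on the zone axis and Acaa1b, Cyp4a12b and Cyp7b1 have amplitudes below 1.

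Genes were also ranked by the size of both differences. Elovl3 was chosen for its time difference and its pericentral excess, so its own place in this ranking is a description. Of 8840 genes with both fits, 237 had an amplitude of at least 1, 164 a pericentral excess of at least 1 (log2), and 23 both, Elovl3 among them. Of those, 1 other gene, Ndrg1 (amplitude 2.62, zone difference -2.92, mean 8.20 CPM), was at least as large as Elovl3 on both counts. It was named after its values were seen. These counts rank fitted values and include genes that no test called.

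Genes whose levels ran most like those of Elovl3 were sought over 80 sums, 8 layers in each of 10 libraries, by Pearson's r of log2(CPM + 1) among 4340 other genes whose mean reached 20 CPM. The sums of a library share its depth and mice, so r is a description. The median r was -0.00, and 19 genes had r above 0.7. The 6 highest were Cyp2c70 (0.82), an enzyme that makes the rodent muricholic bile acids, Tlcd2 (0.81), a membrane protein, Pnp (0.79), a purine nucleoside phosphorylase, Fdps (0.78), an enzyme of cholesterol synthesis, Insig2 (0.77) and Cyb5b (0.76), a cytochrome b5 of the outer mitochondrial membrane. All 6 were higher at ZT0 than at ZT12 by mean, and none ranged as far as Elovl3: Cyp2c70 measured 529 ± 76.3 CPM at ZT0 and 331 ± 126 at ZT12, and its fitted zone difference was -0.58 ± 0.08. Insig2 resembled Elovl3 in time but not in place, with 0.13 ± 0.09 between zones. The 3 lowest were Mfsd2a (-0.81), a carrier of lysophosphatidylcholine, Atp1b1 (-0.81), a subunit of the sodium pump, and Pck1 (-0.80), the gluconeogenic carboxykinase. Mfsd2a was nearly the mirror of Elovl3. It measured 6.11, 2.23 and 3.38 CPM at ZT0 and 77.7, 51.1 and 97.9 CPM at ZT12, a fitted difference of 4.10 ± 0.38, with a zone difference of 2.07 ± 0.18.

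**Figure D5:**
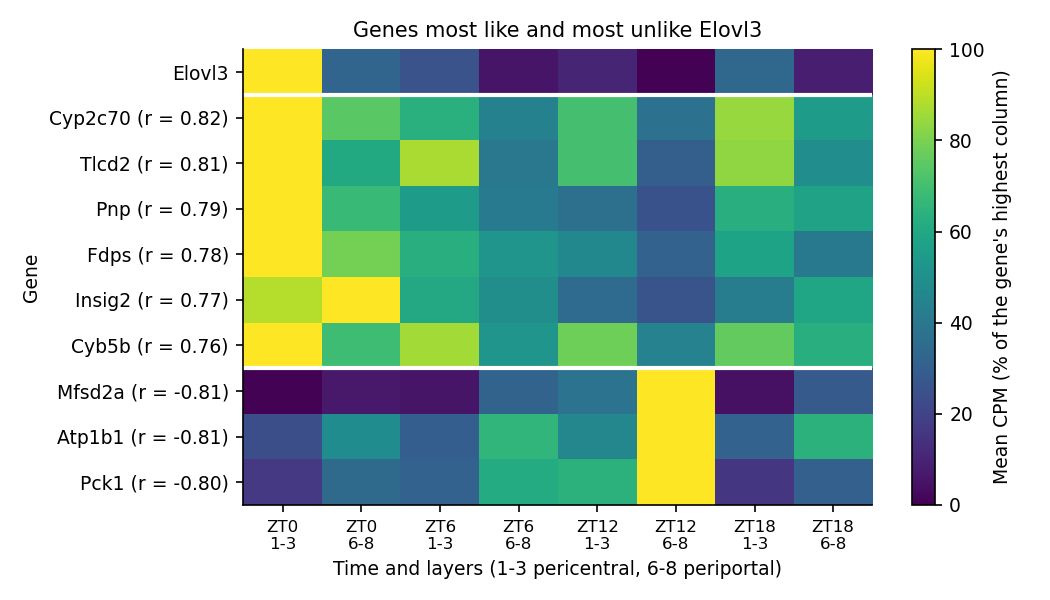
Mean CPM of Elovl3 (top row), of the 6 genes most like it and of the 3 most unlike it, in layers 1 to 3 and 6 to 8 at each time, as a percentage of each gene's highest column; r is over 80 sums. Elovl3 is lowest at ZT12 in layers 6 to 8, where Mfsd2a, Atp1b1 and Pck1 are at their highest.

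The promoters of 3 of these genes are shown because each holds the 6 letters AGGTCA, the core of the DNA element bound by REV-ERB and ROR, on 1 of its strands. They are Cyp2c70, most like Elovl3, Mfsd2a, most unlike it, and Elovl6, its relative called rhythmic by edgeR. The letters were found on either strand in 16.3% of the 32851 promoters in the RefSeq table (GRCm38.p6). A promoter is here the 250 bases before and 50 bases after the gene start, 5′ to 3′ along the gene, with the match in capitals (TGACCT is AGGTCA on the other strand).
Cyp2c70: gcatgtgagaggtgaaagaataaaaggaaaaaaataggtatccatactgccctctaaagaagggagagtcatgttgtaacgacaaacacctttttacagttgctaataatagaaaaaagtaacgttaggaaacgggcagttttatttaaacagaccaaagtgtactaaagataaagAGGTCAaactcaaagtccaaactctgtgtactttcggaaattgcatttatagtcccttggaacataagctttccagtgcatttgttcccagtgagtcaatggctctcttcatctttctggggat
Mfsd2a: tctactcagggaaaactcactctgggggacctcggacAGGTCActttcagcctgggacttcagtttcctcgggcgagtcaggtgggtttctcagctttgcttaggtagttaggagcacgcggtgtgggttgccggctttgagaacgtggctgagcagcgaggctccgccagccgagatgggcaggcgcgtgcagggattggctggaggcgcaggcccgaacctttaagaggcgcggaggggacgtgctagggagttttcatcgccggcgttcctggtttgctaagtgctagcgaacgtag
Elovl6: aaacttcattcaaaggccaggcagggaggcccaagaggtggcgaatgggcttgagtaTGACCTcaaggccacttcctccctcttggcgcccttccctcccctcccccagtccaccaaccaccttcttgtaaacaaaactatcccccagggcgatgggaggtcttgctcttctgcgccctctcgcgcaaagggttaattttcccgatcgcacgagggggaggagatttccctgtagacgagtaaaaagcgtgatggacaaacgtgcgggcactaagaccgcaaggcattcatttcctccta
Cyp2c70 is at chr19:40187237-40187536 on the minus strand, with the match starting 74 bases before the gene start. Mfsd2a is at chr4:122961139-122961438 on the minus strand (213 bases before), and Elovl6 at chr3:129532136-129532435 on the plus strand (193 bases before). The motif thus stood in the promoters of the gene most like Elovl3 and of the gene most unlike it. It was also in a listed promoter of Elovl1 (95 bases before the gene start) and in a listed promoter of Arntl, not printed here. It was in none of the listed promoters of Tlcd2, Pnp, Insig2, Cyb5b, Atp1b1, Pck1, Elovl2, Elovl5 and Elovl7. The promoters of Elovl3 and Fdps were not analysed here. The letters CACGTG, an E-box, were found in 7.15% of all promoters. Among the promoters named here they stood only in that of Elovl5, 161 bases before the gene start. A match of letters is a description of sequence and not a binding site.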

How the data were processed

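UMI counts per gene and cell for 10 libraries were used as the authors deposited them: raw counts, read as such because the values are whole numbers with unequal totals. The submitters' processing notes name Cell Ranger and the builds mm10 and hg19, with no role; versions and filters on cells are not given in the sources used here. Counts were summed per library, and per zone, with zones from a score of 8 periportal minus 8 pericentral landmark genes. Sums were tested with edgeR 4.0.16 (quasi-likelihood, TMM, R 4.3.3) on genes averaging 3 CPM or more, with Benjamini-Hochberg adjustment and a threshold of 0.05; the rhythm test used the cosine and sine of 24 h, and the zone test the library as a block. DESeq2 1.42.0, other scalings and filters, and libraries left out were alternatives, and the tests were tested on simulated data. The gene, the gene lists and the tests were chosen with earlier results of these data known. Named from each list were up to 4 called genes with the largest changes, all elongases, the 6 genes most and 3 least correlated with Elovl3, and 3 neighbours on each side. Of 14812 symbols 14321 matched GENCODE M21. The letter numbers pair ZT0 and ZT12 libraries, which share sample index numbers and deviate together; ZT6 and ZT18 are not paired. Intervals cover counting error only. Doublets were not called. Values of some listed genes are counted but not reported here.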

Additional observations from a re-analysis of the deposited data

Results flagged for a closer look

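Xist, measured outside the comparisons above, stood at 36.8 CPM in ZT18A, against 0 to 0.169 CPM in the other 9 libraries. It is listed because Xist, an RNA of the inactive X chromosome, appears in 1 library of animals labelled male. The 64 cells with Xist had 16 Elovl3 UMIs in 162656 UMIs. Transcripts of the Y-linked genes Ddx3y, Eif2s3y, Kdm5d and Uty summed to 117 CPM in these 64 cells and to 113 CPM in all of ZT18A. The source of the Xist UMIs was not tested. Without all cells that held an Xist UMI, ZT18 minus ZT6 was 0.37 for Elovl3, against 0.35 with them.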

How the results depend on the processing

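The Elovl3 log2 differences moved by less than the spread between libraries in the alternatives run, and all but ZT18 minus ZT6 kept their sign. ZT12 minus ZT0 ranged from -4.46 to -3.47 over 22 alternatives, the amplitude from 1.75 to 2.20 over 20, and the zone difference from -2.48 to -1.91 over 19. ZT18 minus ZT6, which had no clear sign, ranged from -0.05 to 0.69 over 18. With the letter as a replicate block the amplitude was 1.94, and with the index number as a block 2.003 with a peak at ZT 0.84. Within index numbers 3, 5 and 7, ZT12 minus ZT0 was -3.90, -3.66 and -4.17. The mean share of cells with an Elovl3 UMI depends on depth by construction: 35.6%, 10.2%, 4.02% and 13.2% at ZT0, ZT6, ZT12 and ZT18 became 57.6%, 17.7%, 7.08% and 21.1% without thinning, and 53.8%, 20.4%, 6.82% and 19.2% in cells thinned to 2000 UMIs, which left out 2793, 2454, 2038 and 2138 cells. The count of rhythmic genes, 458, became 792 by DESeq2, 710 with no filter beyond 1 UMI, 283 with at least 20 CPM, 231 without both ZT18 libraries, 749 with a replicate block, and 228 to 465 with 1 library left out; it was lowest without ZT18A (228) and was 249 without ZT18B, 272 without ZT6B and 302 without ZT12B. The count for ZT12 against ZT0, 306, became 469 with no filter and 504 with the replicate block, which held all 306. The zone count, 2194, became 1215 with cells of at least 3000 UMIs, where fewer cells enter. With library size alone the calls higher at ZT12 went from 50.7% to 66.7% (median of all genes shifted by 0.13 on the log2 scale) and those higher periportally from 48.3% to 27.8% (median -0.11). The causes of the other shifts were not tested. No named gene reversed. Of the calls among named genes, 4 of 11 for rhythm, 3 of 5 for ZT12 against ZT0 and 29 of 36 by zone held in every alternative run. The depth limits the periportal value at ZT12, where 3 libraries held 15 Elovl3 UMIs.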

Other observations

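Levels of other male-biased genes also differed between letters, a pattern seen only after the values were examined. Elovl3 was highest in library C at both ZT0 and ZT12. So were 7 of the 10 male-biased genes (Cyp4a12a, Cyp4a12b, Cyp2d9, Cyp7b1, Hsd3b5, Slco1a1 and C6) and 6 of the 9 peroxisomal genes (Abcd3, Acaa1a, Acaa1b and Scp2 among them). Of all 8908 genes tested, 25.8% were highest in C at both times, so this pattern is common. Cyp7b1 measured 150, 42.8 and 225 CPM in ZT0A, ZT0B and ZT0C and 56.4, 25.8 and 260.04 CPM in ZT12A, ZT12B and ZT12C. The 7 male-biased genes are the same 7 that were pericentral, while the periportal Mup20, Gstp1 and Selenbp2 were not highest in C at both times. The 9 genes of fatty acid synthesis held none with that order.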
